A study of Mus musculus with 17 samples.

Results

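Cerebella of mice in which Atr can be deleted were compared directly between the backgrounds that were used to study the deletion, one without Bax and Bak and one without p53. The members are 9 of the 17 samples of the series, chosen by genotype label: 5 with Atr-loxP/loxP and Bax-loxP/loxP, lacking Bak (Bak--/-) and carrying the Cre driver Math1-Cre (the Atr/Bax/Bak libraries), and 4 with that driver, Atr-loxP/loxP and p53-loxP/loxP (the Atr/p53 libraries). 1 more sample of the latter genotype held 13601 counts in all and was left out. The controls carried the same alleles without loxP-flanked Atr: 4 Bax/Bak controls and 3 p53 controls. Their values are given beside the Atr-deleted libraries for part of the lists and of the genes named. A gene given without control values may differ between the controls too. All samples were whole cerebella of C57BL/6 mice at postnatal day 3, freed of meninges, and the libraries were made from poly-A RNA. All 4 genotypes carried Math1-Cre, and no sample was free of both backgrounds, so every difference below is between a cerebellum without Bak and with deletable Bax and a cerebellum with deletable p53. Math1-Cre acts in granule neuron progenitors and their descendants, so other cells may keep Atr, Bax and Trp53, whereas Bak is missing in every cell. The Atr/Bax/Bak samples share one number series in their names and the Atr/p53 samples another, so background and number series coincide and cannot be told apart. Of the controls, p53 control replicate 1 shares the number series of the Atr/p53 samples, and the others have number series found in no other group. The labels do not give litters or say that each sample is 1 animal, so the p-values reflect only how far these samples lie apart, which may be technical.

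Atr is the kinase that is recruited to single-stranded DNA at stalled replication forks and that restrains origin firing and mitotic entry through the kinase Chk1. DNA damage also stabilizes p53, a transcription factor that induces inhibitors of the cell cycle, its own antagonist Mdm2, and genes of cell death such as Bbc3 (Puma) and Pmaip1 (Noxa), whose products act through Bax and Bak at the mitochondrial membrane. In the early postnatal cerebellum the progenitors of granule neurons divide rapidly in the external granule layer under Sonic hedgehog and then differentiate and migrate inwards. Bax and Bak thus act after p53 and its targets in this pathway.

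The deleted genes were examined first, in CPM (counts scaled to a common library size over all 16 deep libraries). Bak1 (chr17:27019810-27029009, GRCm38), an effector of mitochondrial apoptosis, stood at 0.607, 0.555, 0.344, 0.283 and 0.385 CPM in the Atr/Bax/Bak libraries and at 41.6, 32.6, 39.3 and 39.9 CPM in the Atr/p53 libraries. Bax (chr7:45461697-45466898), its partner, was at 24.7, 35.7, 34.7, 32.9 and 33.97 CPM in the former and at 68.9, 73.7, 64.3 and 54.2 CPM in the latter. Trp53 (chr11:69580359-69591873), the gene of p53, was at 62.2, 68.7, 76.8, 72.6 and 67.2 CPM against 45.5, 29.3, 39.2 and 40.1 CPM. The groups did not overlap for any of these genes, and each differed in a two-sided exact permutation test (p = 0.00794, the smallest that 126 arrangements allow, and 0.0106 after adjustment over 4 tests). Residual Bax and Trp53 RNA was present in every library of the group in which the gene is loxP-flanked. Atr itself (chr9:95857597-95951781) was at 40.0 ± 3.07 CPM (SD, n = 5) and 37.1 ± 2.83 CPM (SD, n = 4), and the same test found no difference (exact p = 0.19). Its level in the controls was 43.4 ± 3.99 CPM (SD, n = 4) and 37.0 ± 1.11 CPM (SD, n = 3). The count covers the whole gene and not the deleted part alone, so the level of Atr does not check the Atr labels.

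Depth was similar in the 9 libraries, at 57093713 to 81930471 counts, and at 42987953 to 100659645 over all 16. On the first principal component of all genes (35.8% of the variance), the Atr/Bax/Bak libraries lay at -59.2 to -48.8, the Bax/Bak controls at -26.8 to -6.30, and the p53 groups at 41.5 to 62.7, with and without loxP-flanked Atr. Replicate 2 of the Atr/p53 libraries stood apart in mitochondrially encoded RNA, which made up 9.02% of its counts against 2.47%, 2.61% and 3.37% in the other libraries of its group and 3.53% to 4.35% in the Atr/Bax/Bak libraries. With it, no difference in the share was found between the groups (two-sided exact permutation p = 0.968). Without it, the share was higher in the Atr/Bax/Bak libraries, which then did not overlap the others (exact p = 0.0179), and 7 of the 13 mitochondrial genes were called higher in place of 1. The 4 Y-linked genes measured were low, at most 9.10 CPM in sum, in replicates 1, 2 and 3 of the Atr/Bax/Bak libraries and replicate 2 of the Atr/p53 libraries, and at 184 to 220.5 CPM in the other 5, so the groups also differ in their mix of sexes. The part of this mix and of that library in the results below was not tested beyond the values without single libraries. Markers of brainstem and midbrain summed to 2.68 to 14.4 CPM in the 9 libraries, and none of the 12 genes tested was called.

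Of 18166 genes tested, 4418 (24.3%) were higher and 4149 (22.8%) lower in the Atr/Bax/Bak than in the Atr/p53 libraries at an adjusted p below 0.05 (quasi-likelihood test of edgeR, Benjamini-Hochberg adjusted, which defines "called" below). Changes of over 2-fold were fewer, with 1040 genes higher and 512 lower. The median log2 difference of all genes, Atr/Bax/Bak minus Atr/p53, was 0.03. Leaving out each of the 9 libraries in turn kept 3281 of the higher and 3321 of the lower genes called in every one of the 9 fits. The same comparison between the controls, which shares no library with the first, called 1582 genes higher (8.71%) and 1690 lower (9.3%), and under upper-quartile scaling 1308 and 2203. The control comparison rested on single libraries more than the first, since it called 1883 genes in all without p53 control replicate 3, 2062 without p53 control replicate 2 and 2120 without Bax/Bak control replicate 3. The difference between the comparisons, tested as an interaction, was called for 1467 genes in the higher (8.08%) and 1469 in the lower direction (8.09%). It fell to 859 and 770 genes without p53 control replicate 3, and to 956 and 867 without p53 control replicate 2. In the higher direction it was also 957 without replicate 2 and 920 without replicate 5 of the Atr/Bax/Bak libraries.

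The genes called higher were of several kinds. Of the 4418 genes, 959 (21.7%) were also called higher in the controls, which is 60.6% of the genes called higher there. For 1257 (28.5%) the difference between the comparisons was itself called in the higher direction, and 2309 passed neither test. Of the 4149 genes called lower, 1160 (28%) were also called lower in the controls, which is 68.6% of that list, and 1226 (29.5%) were called for the difference in the lower direction.

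**Figure D1:**
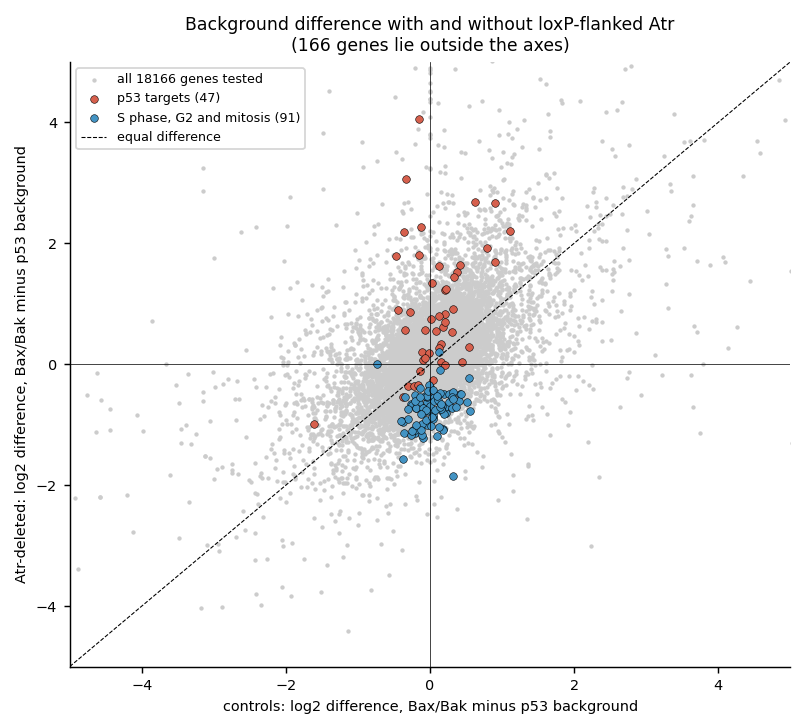
Each point is a gene tested, placed by its log2 difference between backgrounds in the controls (x axis) and with loxP-flanked Atr (y axis), with 47 p53 targets in red, 91 genes of S phase, G2 and mitosis in blue, and the dashed line of equal differences. Most p53 targets lie above the line and nearly all cell-cycle genes below 0 on the y axis, whereas on the x axis both kinds are spread around 0. 166 genes lie outside the axes.

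Targets of p53 stood higher in the Atr/Bax/Bak libraries, in which p53 is intact. Of 47 targets tested in 3 lists (cell-cycle arrest and feedback, death, repair and metabolism), 33 were called higher and 6 lower, beside 24.3% and 22.8% of all genes. In 31 the groups did not overlap with the Atr/Bax/Bak libraries higher, and in 6 with them lower, beside 21.1% and 18.6% of all genes. Their median log2 difference was 0.74, against 0.08 in the controls. There 9 were called higher and 6 lower, beside 8.71% and 9.3% of all genes. For 27 of the 33 the difference between the comparisons was called in the higher direction, beside 8.08% of all genes. None of the 47 was called in the lower direction with all libraries, and 1 was without Bax/Bak control replicate 1, p53 control replicate 1 or replicate 2 or 5 of the Atr/p53 libraries.

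Among the targets that act in arrest and feedback, 14 of 16 were called higher, and 14 were called under every scaling, tool and left-out library. Cdkn1a, which encodes the cyclin-dependent kinase inhibitor p21, was at 216, 282, 275, 260 and 261 CPM in the Atr/Bax/Bak libraries and at 75.7, 64.8, 80.8 and 78.2 CPM in the Atr/p53 libraries. Every Atr/Bax/Bak library exceeded every Atr/p53 library, with a log2 difference of 1.79 ± 0.09 (SE, edgeR adjusted p = 8.03e-10). In the controls the order was the opposite, at 54.6 ± 5.78 CPM (SD, n = 4) without Bax and Bak and 75.6 ± 4.64 CPM (SD, n = 3) without p53 (log2 difference -0.47, adjusted p = 0.00481), and the difference between the comparisons was 2.26 on the log2 scale. Phlda3, a p53 target that restrains the kinase Akt, was at 28.5 to 34.6 CPM in the Atr/Bax/Bak libraries and 6.02 to 7.64 CPM in the Atr/p53 libraries, and the controls were at 6.13 ± 1.41 and 6.63 ± 0.331 CPM (SD, n = 4 and 3). Zmat3, an RNA-binding protein gene, was at 115, 129, 129, 130 and 120 CPM against 41.1, 35.6, 39.9 and 43.9 CPM. The gap again exceeded the spread within both groups. Trp53inp1 (log2 difference 2.67), Ccng1, which encodes cyclin G1 (1.52), Btg2 (1.23) and Mdm2 (0.84), the ligase that degrades p53, were called higher too. The exceptions were Sfn, which encodes 14-3-3 sigma, at -0.99 and also lower in the controls (-1.61), and Plk3, at -0.36.

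Of 15 targets that act in cell death, 12 were called higher. Eda2r, a member of the TNF receptor family, was at 70.0, 80.9, 88.4, 75.6 and 63.0 CPM in the Atr/Bax/Bak libraries and at 11.6, 13.9, 11.9 and 9.52 CPM in the Atr/p53 libraries (log2 difference 2.69 ± 0.11, SE, edgeR adjusted p = 5.72e-11). It was also called higher in the Bax/Bak than in the p53 controls, at 17.9 ± 1.16 against 11.6 ± 0.331 CPM (SD, n = 4 and 3, log2 difference 0.63). The difference between the comparisons was 2.06. Pmaip1, a BH3-only activator of Bax and Bak, was at 33.8, 52.8, 66.8, 50.5 and 41.8 CPM against 6.30, 4.38, 6.93 and 5.78 CPM. All 5 libraries were high, and the controls stood at 4.17 ± 0.269 and 5.28 ± 0.361 CPM (SD, n = 4 and 3), so that the difference between the comparisons was 3.41 ± 0.25 on the log2 scale (SE, adjusted p = 1.13e-06). Bbc3, the other main BH3-only target, was at 60.5 to 74.9 CPM against 13.97 to 15.99 CPM, a log2 difference of 2.20. It was also higher in the controls without Bax and Bak (log2 difference 1.11), and the difference between the comparisons was 1.08 ± 0.14 (SE, adjusted p = 0.000144). Fas, the death receptor, was low in all libraries, at 4.44 to 6.23 CPM in the Atr/Bax/Bak libraries and 0.141 to 0.699 CPM in the Atr/p53 libraries. Siva1 was the only target of this list called lower (-0.54).

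Targets that act in repair and metabolism were mixed, with 7 of 16 called higher, 3 lower and 6 not called, and a median log2 difference of 0.19. Sesn2, a sestrin that restrains mTORC1, was at 68.9 to 80.4 CPM against 15.1 to 22.1 CPM, and Polk, a translesion polymerase, at 21.5 to 23.9 CPM against 7.04 to 9.89 CPM. Lpin1, a phosphatidate phosphatase, was at 47.1 to 50.7 CPM against 18 to 20.4 CPM. The groups did not overlap for any of these genes. Triap1, Polh and Tigar were called lower (-0.35, -0.34 and -0.27), and Rrm2b, Sesn1 and Ddb2, often used as p53 targets, had log2 differences of 0.04, 0.03 and -0.11 and were not called.

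**Figure D2:**
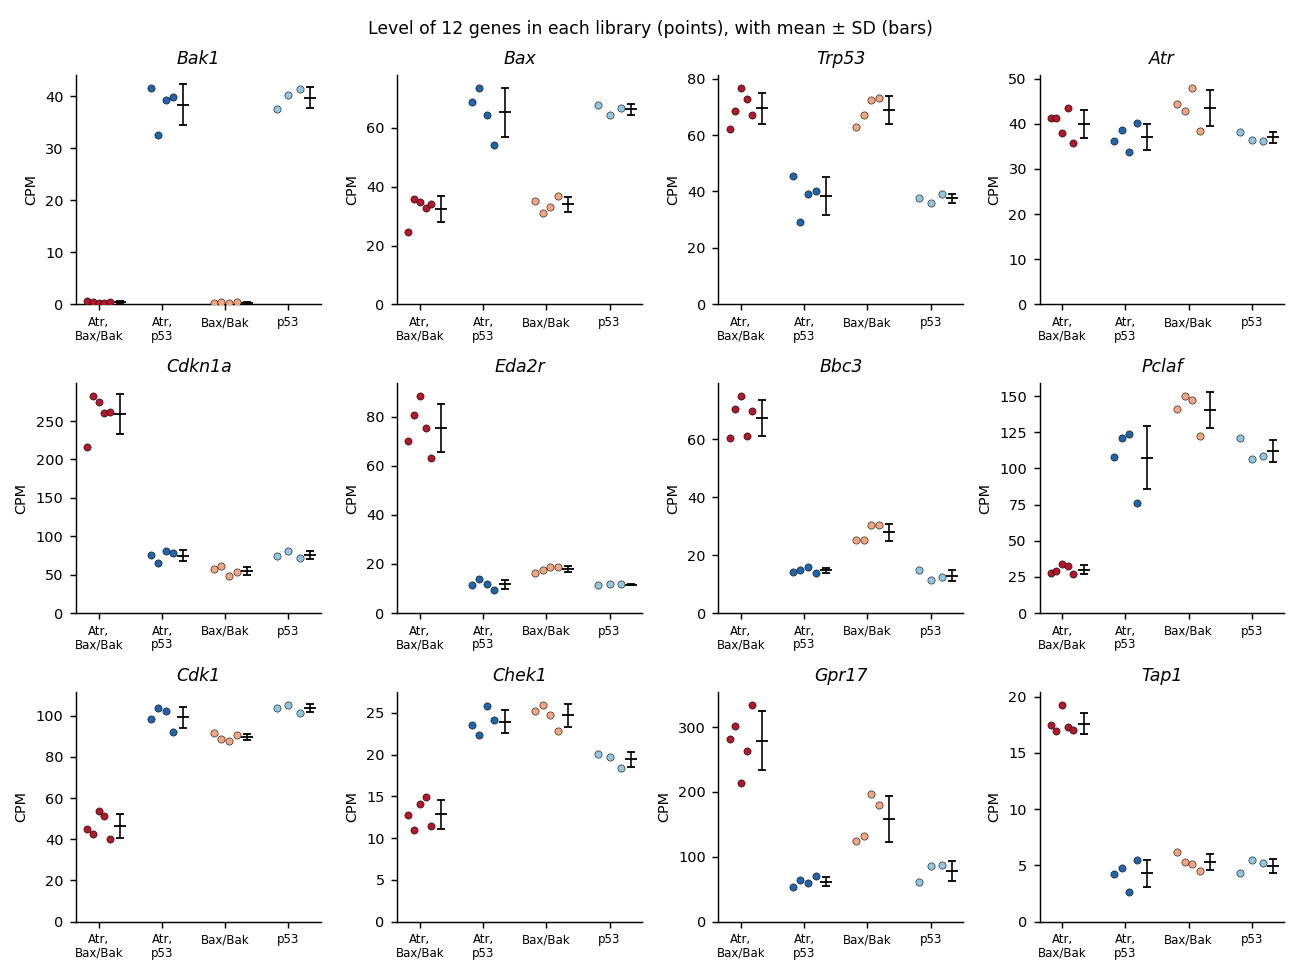
CPM of 12 genes in each of the 16 deep libraries (points) by genotype group, with mean ± SD beside the points and every axis starting at 0. Cdkn1a, Eda2r and Tap1 are highest in the 5 Atr/Bax/Bak libraries, and Pclaf, Cdk1 and Chek1 are lowest there. Eda2r is also higher in the Bax/Bak controls than in the p53 controls. Bak1, Bax and Trp53 follow the background with and without loxP-flanked Atr.

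Because many members moved together, the 250 bases before each RefSeq start of a gene (GRCm38.p6) were searched on both strands. A gene was counted when any of its starts had a match. The p53 element was taken as a pair of 10-base half-sites with up to 13 bases between them. At most 2 mismatches in all were allowed, and none at the fixed C and G of a half-site. It was found before 3.87% of 27025 genes and before 4 of the 36 p53 targets with a promoter entry (11.1%). In the lists that stood the other way it was found before 4 of 40 S-phase genes (10%) and 3 of 35 genes of G2 and mitosis (8.57%). These 2 carry it in capitals, shown because their genes are the textbook arrest target and the cyclin G1 gene: Cdkn1a at chr17:29090729-29090978 (plus strand) and Ccng1 at chr11:40755287-40755536 (minus strand).
Cdkn1a: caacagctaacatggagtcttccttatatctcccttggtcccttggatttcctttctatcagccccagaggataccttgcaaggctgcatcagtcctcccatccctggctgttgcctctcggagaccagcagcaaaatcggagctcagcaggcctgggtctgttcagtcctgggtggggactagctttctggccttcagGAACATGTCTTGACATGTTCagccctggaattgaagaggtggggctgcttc
Ccng1: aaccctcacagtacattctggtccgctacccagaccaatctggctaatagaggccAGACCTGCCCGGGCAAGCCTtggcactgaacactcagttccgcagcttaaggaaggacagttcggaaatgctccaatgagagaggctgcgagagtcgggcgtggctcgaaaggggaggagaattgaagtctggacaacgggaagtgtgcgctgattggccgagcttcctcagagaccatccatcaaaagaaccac
A match is a description of these letters and not a measured binding site, and p53 elements that lie farther away are outside the window.

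Genes of the cell cycle were lower in the Atr/Bax/Bak libraries. Of 48 genes of S phase and replication, 46 were called lower and none higher (Dnmt1 and Wdhd1 were not called), beside 22.8% and 24.3% of all genes, with a median log2 difference of -0.68. Of 43 genes of G2 and mitosis, 42 were called lower, with a median of -0.74. Ckap2, a spindle protein gene, was the exception at 0.20, and this call was lost without replicate 2, 3, 4 or 5 of the Atr/Bax/Bak libraries or replicate 1 or 2 of the Atr/p53 libraries. In the controls the medians were -0.09 and 0.14, with 1 S-phase gene called higher and 8 lower, and 5 mitotic genes higher and 1 lower. The shares of all genes there were 8.71% higher and 9.3% lower. The difference between the comparisons was called in the lower direction for 33 S-phase and 41 mitotic genes, beside 8.09% of all genes. In the higher direction it was called for none, beside 8.08%. The summed level of the S-phase list was 1768 to 2110 CPM in the Atr/Bax/Bak libraries and 2580 to 3379 CPM in the Atr/p53 libraries. The controls stood at 3173 to 3368 CPM without Bax and Bak and at 3314 to 3541 CPM without p53. Groups did not overlap for 59 of the 91 genes of both lists, beside 18.6% of all genes. In whole cerebella, fewer cycling cells and less RNA of these genes per cell cannot be told apart.

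Pclaf, which encodes a PCNA-binding factor, had the largest difference among the S-phase genes. It was at 27.4, 29.0, 33.9, 32.6 and 26.8 CPM in the Atr/Bax/Bak libraries and at 108, 121, 124 and 76.3 CPM in the Atr/p53 libraries (log2 difference -1.84 ± 0.12, SE, adjusted p = 1.41e-08). The lowest Atr/p53 library was replicate 5, still above all 5 others, and the controls were at 140 ± 12.4 and 112 ± 7.67 CPM (SD, n = 4 and 3). Tyms, the thymidylate synthase, was at 21.7 to 26.2 CPM against 49.4 to 51.1 CPM, and Prim1, the catalytic subunit of primase, at 18.9 to 24.8 CPM against 45.9 to 56.5 CPM. Pcna, the sliding clamp of the replication fork, was at 91.6 ± 11 CPM (SD, n = 5) against 271 ± 12.3 CPM (SD, n = 4). A pseudogene that shares its sequence, Pcna-ps2, held 25.2 ± 3.31 and 0.257 ± 0.136 CPM, and the sum of Pcna and its pseudogenes was 117 ± 14 against 272 ± 12.1 CPM, a log2 ratio of -1.22, so the sum was lower as well. For Mcm5, a subunit of the replicative helicase, the groups overlapped: replicate 2 of the Atr/p53 libraries stood at 67.5 CPM, within the 54.8 to 70.0 CPM of the Atr/Bax/Bak libraries, while the other 3 were at 108 to 126 CPM.

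Among mitotic genes, Cdk1, the kinase that drives entry into mitosis, was at 45.0, 42.4, 53.8, 51.4 and 39.9 CPM in the Atr/Bax/Bak libraries and at 98.2, 104, 102 and 92.2 CPM in the Atr/p53 libraries (log2 difference -1.09 ± 0.07, SE, adjusted p = 1.92e-08). Bub1, a kinase of the spindle checkpoint, was at 22.7 to 30.9 CPM against 51.3 to 58.9 CPM. Birc5, the survivin subunit of the chromosomal passenger complex, was at 20.4 to 25.7 CPM against 45.4 to 49.1 CPM. The levels of these genes in the Atr/p53 libraries were near those of both control groups, and those in the Atr/Bax/Bak libraries lay below all of them. Mki67, the marker of cycling cells, differed less (log2 difference -0.54 ± 0.14, SE, adjusted p = 0.00397), and replicate 2 of the Atr/p53 libraries, at 213 CPM, lay within the 188 to 236 CPM of the Atr/Bax/Bak libraries.

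Promoters of the cell-cycle genes held motifs known from this class. The CCAAT box (CCAAT, both strands) was found in the same window before 27 of 35 genes of G2 and mitosis with an entry (77.1%) and before 37.5% of all genes, and the cell-cycle homology region (TTTGAA, both strands) before 13 of 35 (37.1%) and 18.3%. An E2F site (TTT, then 2 bases that are each C or G, then CGC, both strands) was found before 11 of 40 S-phase genes (27.5%) and 2.16% of all genes. Before the 36 p53 targets the shares were 52.8% for the CCAAT box, 13.9% for the homology region and 2.78% for the E2F site. The motifs can overlap one another. The capitals mark CCAAT boxes and homology regions for Cdk1 (chr10:69352913-69353162, minus strand), CCAAT boxes alone for Bub1 (chr2:127831860-127832109, minus strand), and E2F sites for Mcm5 (chr8:75109259-75109508, plus strand).
Cdk1: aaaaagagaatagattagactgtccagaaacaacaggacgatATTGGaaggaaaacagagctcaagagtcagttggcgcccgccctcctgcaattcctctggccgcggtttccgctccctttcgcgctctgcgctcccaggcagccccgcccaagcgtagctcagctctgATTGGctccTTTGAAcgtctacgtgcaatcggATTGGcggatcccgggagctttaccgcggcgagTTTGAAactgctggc
Bub1: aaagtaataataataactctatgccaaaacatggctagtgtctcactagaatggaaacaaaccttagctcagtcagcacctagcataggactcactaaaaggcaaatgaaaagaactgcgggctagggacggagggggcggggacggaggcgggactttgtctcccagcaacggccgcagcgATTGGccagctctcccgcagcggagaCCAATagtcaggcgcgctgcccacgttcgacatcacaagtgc
Mcm5: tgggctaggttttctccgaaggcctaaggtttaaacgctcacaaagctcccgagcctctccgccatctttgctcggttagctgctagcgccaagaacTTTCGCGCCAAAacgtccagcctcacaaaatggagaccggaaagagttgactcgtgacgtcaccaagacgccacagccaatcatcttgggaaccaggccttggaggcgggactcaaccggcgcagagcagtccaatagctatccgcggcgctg
They are shown as the kinase, a checkpoint gene and a helicase subunit of the lists above, and a match does not show that a factor acts there.

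The Atr-Chk1 and DNA repair genes were lower as well, with 28 of 42 called lower, beside 22.8% of all genes, 1 called higher (Lig4, the ligase of end joining, at 0.42) and a median log2 difference of -0.38, against 0.04 in the controls. Chek1, which encodes Chk1, the main substrate of Atr, was at 12.7, 10.9, 14.1, 14.9 and 11.5 CPM in the Atr/Bax/Bak libraries and at 23.5, 22.4, 25.8 and 24.1 CPM in the Atr/p53 libraries. The groups were well apart, and in the controls the order was reversed, at 24.7 ± 1.33 and 19.4 ± 0.88 CPM (SD, n = 4 and 3), which gave a difference between the comparisons of -1.25 ± 0.13 on the log2 scale (SE, adjusted p = 2.11e-05). Tipin, a fork protection factor, was at 30.1 to 35.5 CPM against 58.2 to 65.9 CPM, and Chek2, the kinase downstream of Atm, at 7.99 to 9.07 CPM against 14.5 to 16.1 CPM. Others, such as Atm, Atrip, Rad17, Rad50 and Parp1, had log2 differences of -0.09, 0.02, -0.08, 0.06 and -0.12 and were not called.

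Sonic hedgehog signalling and progenitor genes had 2 of 24 called higher, 7 lower and a median of -0.20, beside 24.3% called higher and 22.8% lower of all genes. Gas1, a hedgehog co-receptor, was at 19.6 to 23.6 CPM against 30.0 to 38.2 CPM. Pax6, a transcription factor of granule progenitors, was at 141 to 174 CPM against 188 to 239 CPM, where the 188 CPM came from replicate 2. Hhip, a hedgehog antagonist, stood the other way, at 18.7 to 23.9 CPM against 11.1 to 15.3 CPM, as did Sufu (log2 difference 0.54). The targets and drivers Gli1, Ptch1, Mycn and Atoh1 were not called, at -0.23, 0.01, -0.16 and -0.19. The count rested on 1 library: without replicate 2 of the Atr/p53 libraries, 13 of 24 were called lower.

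Granule neuron genes were called in both directions. Of 30 tested, 17 were called higher and 8 lower, beside 24.3% and 22.8% of all genes, with a median of 0.38. In the controls 12 were called higher and 5 lower, beside 8.71% and 9.3% of all genes, with a median of 0.255. Among the higher was Gabra6, a GABA receptor subunit of mature granule neurons, at 6.98, 26.4, 9.89, 12.04 and 10.7 CPM against 0.536, 1.02, 0.719 and 0.338 CPM. It was also higher in the Bax/Bak controls (log2 difference 2.66), and the difference between the comparisons was not called (adjusted p = 0.198). Cbln3, a cerebellin of granule neurons, was at 28.3 to 47.6 CPM against 9.80 to 15.4 CPM, with the controls again in the same order. Gap43 and Stmn2, both known from axon growth, were lower, Gap43 at 213 to 240 CPM against 372 to 481 CPM and Stmn2 at 686 to 743 CPM against 1004 to 1240 CPM. For both of these the difference between the comparisons was called (-0.55 and -0.47), as it was for 4 of the 30 in the lower direction, beside 8.09% of all genes. In the higher direction it was called for none, but for 2 without Bax/Bak control replicate 4 and for 1 without replicate 1 of the Atr/Bax/Bak or replicate 5 of the Atr/p53 libraries.

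Components of apoptosis other than the p53 targets were called higher for 6 of 23 and lower for 7 of 23, near the shares of all genes (24.3% and 22.8%). Bcl2l11 (Bim), a BH3-only activator, was at 52.98 to 64.7 CPM in the Atr/Bax/Bak libraries and 24.1 to 27.9 CPM in the Atr/p53 libraries. Bok, a relative of Bax and Bak, was lower (-0.92). Of 27 genes of the integrated stress response 7 were called higher and 5 lower, also near the shares of all genes, and the 7 fell to 3 without replicate 2 and to 4 without replicate 3 or replicate 5 of the Atr/Bax/Bak libraries. Within it Fgf21, a stress-induced hormone, was lower, at 0.544 to 0.826 CPM against 2.44 to 3.63 CPM, and nearly absent in the controls, at 0.0632 ± 0.0446 and 0.0290 ± 0.0286 CPM (SD, n = 4 and 3). Psat1, of serine synthesis, was lower by a log2 difference of -0.54. Of 20 cholesterol genes 9, all of the synthesis pathway, were called lower and 3 higher. The higher ones were the efflux transporters Abcg1, at 35.4 to 42.3 CPM against 15.8 to 16.8 CPM, and Abca1 (log2 difference 1.10), and the synthesis gene Lss (0.23). Of 14 immediate early genes 4 were called higher, near the share of all genes (24.3%), and 1 lower, beside 22.8%. Fosl2 was among the higher, at 22.9 to 31.5 CPM against 4.79 to 6.61 CPM. The lower one was Maff, not called without replicate 5 of the Atr/Bax/Bak or replicate 1 or 5 of the Atr/p53 libraries.

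Interferon-response and antigen-presentation genes were higher in the Atr/Bax/Bak libraries, with a median log2 difference of 0.74. Of 38 genes, 23 were called higher and 2 lower (Cgas and Ifit2), beside 24.3% and 22.8% of all genes. Their summed level was 334.5 to 417 CPM against 264.7 to 301.9 CPM, and 270.3 to 305.8 and 250.3 to 269.7 CPM in the controls. In the controls 3 were called higher and 1 lower, beside 8.71% and 9.3% of all genes. The difference between the comparisons was called for 13 in the higher direction and 1 in the lower, beside 8.08% and 8.09%. The 13 became 6 without p53 control replicate 3 and 8 without Bax/Bak control replicate 4 or replicate 3 of the Atr/Bax/Bak libraries. The 1 became 0 without p53 control replicate 2 or 3 or replicate 4 of the Atr/p53 libraries, 2 without replicate 3 of the Atr/Bax/Bak libraries and 3 without p53 control replicate 1. Tap1, the peptide transporter of antigen presentation, was at 17.4, 16.96, 19.3, 17.3 and 16.99 CPM against 4.25, 4.77, 2.65 and 5.50 CPM (log2 difference 2.03 ± 0.17, SE, adjusted p = 1.39e-07). The Atr/Bax/Bak libraries were nearly equal to each other, and the controls were at 5.29 ± 0.720 and 4.97 ± 0.615 CPM (SD, n = 4 and 3). Nlrc5, the activator of class I genes (1.91), Mx2 (1.65) and Irf7 (1.33) were called higher, while Isg15 and B2m were not called (0.23 and -0.30).

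Genes of the 2-cell-stage embryo, which are silent in most tissues, were detected at low levels in the Atr/Bax/Bak libraries. All 10 that passed the filter were called higher, and since the filter on low counts could be passed through that group alone, their number is not evidence. Zscan4f, a zinc-finger gene of that stage, held 120, 316, 253, 231 and 389 counts in the Atr/Bax/Bak libraries, 5 counts in 1 Atr/p53 library and 0 in the other 3. Zscan4c held 668 counts over the 5 Atr/Bax/Bak libraries and 0 over the 4 Atr/p53 libraries, at least 172-fold higher when 3 counts over the group are taken as the floor. Over all 15 members in the tables, 4629 counts were found in the Atr/Bax/Bak libraries, 215 in the Atr/p53 libraries, and 94 and 59 in the Bax/Bak and p53 controls, mostly from Usp17la in the controls (69 and 51). Other genes held 58.8% to 94.8% of the 31-base words of the Zscan4 genes, so the counts cannot be assigned to single members. Of the 10 genes, 3 were still called when genes that share over 50% of their words were left out. Since the controls were at or near 0 as well, the difference between the comparisons was called for 0 to 5 of the 10 over the settings tried, 0 of them in edgeR with all libraries.

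Markers of several cell types that do not come from granule progenitors were higher, while others were not. Of 15 genes of the oligodendrocyte lineage, 13 were called higher and none lower, beside 24.3% and 22.8% of all genes. For 12 the difference between the comparisons was called in the higher direction, beside 8.08% of all genes. The 15 genes had a median log2 difference of 2.19 against 0.70 in the controls. Their summed level was 1707 to 3529 CPM against 576.9 to 676.7 CPM, and 991.4 to 1711 and 677.7 to 994.3 CPM in the controls. Genes of maturing and myelinating cells led, with Gpr17, a receptor of committed precursors, at 282, 302, 214, 263 and 335 CPM against 52.7, 64.0, 59.0 and 69.6 CPM. Mobp, a myelin protein, was at 69.5, 96.7, 34.5, 35.5 and 148 CPM against 0.976, 2.14, 1.05 and 1.21 CPM. It varied within the Atr/Bax/Bak libraries, and within the Bax/Bak controls too, at 10.6 to 47.7 CPM, but all 5 Atr/Bax/Bak libraries exceeded all 4 Atr/p53 libraries. Pdgfra and Olig1, which mark early precursors, were the only 2 of the 15 genes not called (0.04 and -0.00361). Any other precursor marker in the list was thus among the 13 called, so these 2 do not stand for precursor markers as a class.

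For the lists that follow, the shares of all genes were 24.3% called higher, 22.8% lower and 8.08% called for the difference in the higher direction. Of 20 markers of astrocytes and Bergmann glia, 15 were called higher and 1 lower (Fabp7, at -0.85, or 2 lower without replicate 2 of the Atr/p53 libraries). Their median was 0.53 against 0.05 in the controls, and 10 were called for the difference in the higher direction. Atp1b2, an astrocytic sodium pump subunit, was at 395 to 510 CPM against 170 to 197 CPM, and Gfap, the astrocyte filament, at 490 to 1022 CPM against 40.7 to 77.3 CPM. Of 12 markers of GABAergic interneurons 11 were called higher and none lower, with a median of 0.555, and Slc6a5, the glycine transporter, stood at 26.4 to 33.96 CPM against 12.6 to 15.1 CPM. Of 17 Purkinje cell genes, 11 were called higher and 3 lower. The difference between the comparisons was called for 6 in the higher direction, or for 2 to 8 with 1 library left out. Itpr1, the calcium release channel abundant in Purkinje cells, was at 706 to 1060 CPM against 337 to 475 CPM, whereas the developmental regulators Foxp2, Skor2 and Ebf2 were lower. In no group of cell markers was a member at 0 in all 9 libraries. The 9 genes that mark deep nuclei or unipolar brush cells had a median of -0.165, and their summed levels overlapped, at 286.7 to 333.8 CPM against 218.5 to 318 CPM. Erythroid markers had a median of 0.127, and their summed levels overlapped, at 349.4 to 502.1 CPM against 295.5 to 685.5 CPM. Because CPM are shares of a library, a smaller share of granule progenitor RNA and a larger amount of RNA from these cells cannot be told apart.

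Vascular and meningeal markers stood higher, with 15 of 18 and 10 of 16 called and none lower, beside 24.3% and 22.8% of all genes. Their median log2 differences were 0.61 and 1.2, against 0.17 and 0.75 in the controls. The difference between the comparisons was called for 1 vascular marker (Rgs5), or 0 to 7 with 1 library left out. It was called for no meningeal marker, beside 8.08% of all genes in the higher direction. Rgs5, of pericytes, was at 222 to 262 CPM against 150.5 to 189 CPM, and Col1a1, a collagen of the meninges, at 110.5 to 154 CPM against 23.1 to 60.3 CPM. Meningeal markers summed to 1079 to 1307 CPM against 319.3 to 923 CPM, while the controls spanned 807 to 2271 and 480.2 to 1202 CPM. The meninges had been removed at dissection, and the part of what remained in these values was not tested. The number of meningeal genes called was 6 without replicate 1, 2 or 3 of the Atr/Bax/Bak libraries or replicate 2, 4 or 5 of the Atr/p53 libraries. Choroid plexus markers summed to 37.7 to 2826 CPM and 73.6 to 234 CPM, with median log2 differences of 2.53 here and 2.50 in the controls. Here 3 of 11 were called higher, near the share of all genes (24.3%), and 1 lower. The 3 became 1 when replicate 1 or 3 of the Atr/Bax/Bak libraries or any Atr/p53 library was left out. Of 20 microglial genes 5 were called higher and 8 lower, beside 24.3% and 22.8% of all genes, with a median of -0.24. In the controls without Bax and Bak 13 of 20 were called lower, beside 9.3% of all genes. The difference between the comparisons was called for 7 of the 20 in the higher direction, beside 8.08%. Itgam, the integrin of microglia, was at 6.41 to 7.94 CPM against 2.54 to 3.44 CPM but shares 68.3% of its words with other genes.

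**Figure D3:**
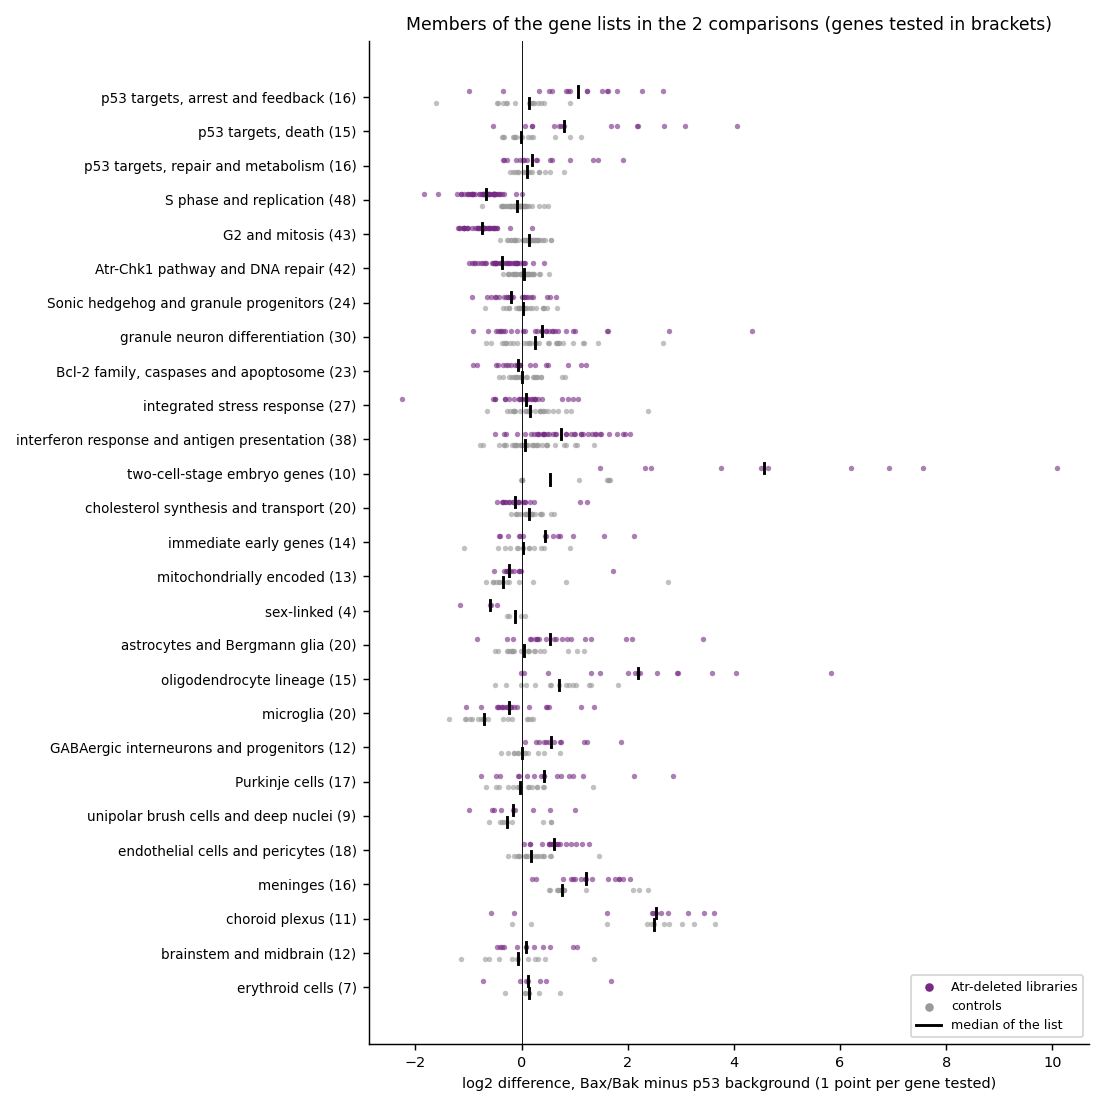
Log2 difference between backgrounds (x axis) of each gene tested in 27 lists (rows, number of genes in brackets), for the Atr-deleted libraries (purple) and the controls (grey), with the median of each list as a black bar. In the Atr-deleted libraries the p53 arrest list (median 1.07), the interferon list (0.74) and the oligodendrocyte list (2.19) lie to the right and the cell-cycle lists (-0.68 and -0.74) to the left, while the choroid plexus list lies to the right in both (2.53 and 2.50).

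The named genes that were higher by the largest differences were mostly near silent in the Atr/p53 libraries. A choice by largest difference favours such genes. The mean of at least 1 CPM could be reached through the Atr/Bax/Bak libraries alone, so the near silence is not a result of its own. Zfp750, a zinc-finger gene of epithelial differentiation, was at 7.58, 11.1, 11.3, 10.04 and 9.97 CPM against 0.138, 0.0621, 0.208 and 0.0423 CPM (log2 difference 6.46 ± 0.42, SE, adjusted p = 1.38e-08). It was also higher in the Bax/Bak controls, at 0.580 ± 0.253 CPM (SD, n = 4), by 1.58 on the log2 scale, and the difference between the comparisons was 4.88. Alox5, the 5-lipoxygenase of leukotriene synthesis, was at 13.1 to 15.6 CPM against 0.211 to 0.481 CPM, and Pla2g2f, a secreted phospholipase, at 4.47 to 6.12 CPM against 0 to 0.171 CPM. Sgca, a sarcoglycan, was at 5.51 to 8.02 CPM against 0.124 to 0.280 CPM, and Them5, a thioesterase gene, at 1.41 to 2.17 CPM against 0.0141 to 0.0825 CPM. In the controls none of Alox5, Pla2g2f, Sgca and Them5 exceeded 1.21 CPM in any library. Tmem125, a transmembrane protein gene, was at 1.24 to 4.51 CPM against 0.0141 to 0.124 CPM and at most 1.14 CPM in the controls. Gpr179, an orphan receptor, was at 3.79 to 6.30 CPM against 0.275 to 0.383 CPM, and was also called higher in the controls (log2 difference 1.08). Klk1, a kallikrein, at 1.26 to 2.66 CPM against 0 to 0.137 CPM, and Hes3, a transcriptional repressor, at 1.62 to 5.20 CPM against 0.0479 to 0.169 CPM, were also called higher in the controls (2.50 and 2.71).

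Among the genes that were lower, Spp1 (osteopontin), a secreted phosphoprotein, was at 8.34, 7.02, 5.57, 3.44 and 5.75 CPM against 55.0, 63.9, 51.5 and 55.5 CPM. The Bax/Bak controls were between, at 15.7 ± 2.94 CPM (SD, n = 4), and the p53 controls at 53.2 ± 12.4 CPM (SD, n = 3), with log2 differences of -3.23 between the Atr-deleted groups and -1.76 between the controls, and the difference between the comparisons, -1.47, was called (adjusted p = 0.00492). Igf2bp1, an RNA-binding protein of fetal tissue, was at 1.49 to 2.51 CPM against 9.09 to 11.4 CPM, and Insm2, a zinc-finger gene of neuroendocrine cells, at 0.809 to 1.63 CPM against 3.495 to 7.04 CPM. Insm2 was also called lower in the controls (log2 difference -0.95). Tac2, a tachykinin, was at 0.228 to 0.821 CPM against 1.32 to 4.32 CPM, with a log2 difference of -2.28, and of -2.005 in the controls.

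Some of the largest differences were present to the same extent in the controls and were in genes that share sequence with other genes. Ftl1, the ferritin light chain, was at 2.43 ± 0.786 CPM (SD, n = 5) against 721 ± 294 CPM (SD, n = 4), and at 2.88 ± 0.217 against 796 ± 34.7 CPM in the controls (SD, n = 4 and 3). Its pseudogenes Ftl2-ps and Ftl1-ps2 held 63.9 ± 4.16 and 14.3 ± 2.58 CPM in the Atr/Bax/Bak libraries, and in the Atr/p53 libraries only replicate 5 held more than 1 CPM of either, at 48.2 and 10.3 CPM. The sum of all 3 was 80.7 ± 7.25 against 736 ± 269 CPM. Hmga1, a chromatin protein gene, was at 20.7 ± 2.06 against 144 ± 22.8 CPM, its near-identical relative Hmga1b at 49.7 ± 3.63 against 0.120 ± 0.0896 CPM, and their sum at 70.4 ± 4.19 against 144 ± 22.8 CPM. Ncoa4, the receptor for ferritin turnover, was at 22.2 to 26.7 CPM against 119 to 157 CPM with 39.5% of its words shared, and mt-Nd3, which shares 98.1%, was the 1 mitochondrial gene called. The estimates of the Bax/Bak and of the p53 background were deposited as separate tables, and a difference in how they were made would fall on both comparisons alike, which was not tested. Of genes that share 0% to 5% of their words, 0.0457% were called and over 8-fold different with the same sign in both comparisons. The share rose with shared sequence, to 2.73% of genes that share over 75%, whereas the difference between the comparisons was called for 17% and 6.17% of the same classes.

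**Figure D4:**
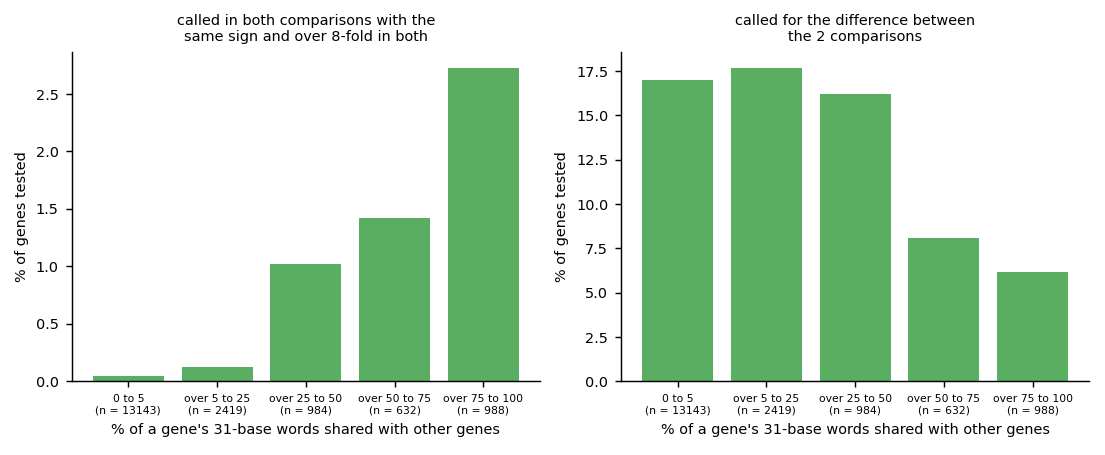
Percentage of genes tested (y axes, from 0) that were called and over 8-fold different with the same sign in both comparisons (left) and that were called for the difference between the comparisons (right), by the percentage of their 31-base words shared with other genes. The left bars climb from 0.0457% to 2.73% and the right bars descend from 17% to 6.17%.

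Genes near the engineered loci were counted because flanking sequence is inherited with a targeted allele, though the part of such sequence in these values was not tested. Calls of the same sign in both comparisons were made for 11.7% of all genes, for 16.1% of 192 genes within 10 Mb of Bax, for 14.4% of 432 near Bak1 and for 12% of 350 near Trp53. Within 5 Mb of Bak1 it was 22.4% of 219 genes. Around Atr, which is loxP-flanked in both Atr-deleted groups, it was 19% of 126 genes. Ftl1, described above, adjoins Bax (chr7:45457944-45459884), differed by -8.22 and -8.11 on the log2 scale in the Atr-deleted libraries and the controls, and was not called for the difference between the comparisons (-0.11, adjusted p = 0.895). Klk1 and Fgf21 also lie within 10 Mb of Bax, and Hmga1 and Tap1 within 10 Mb of Bak1. Of these, Klk1 (2.69, adjusted p = 0.0701) and Hmga1 (-0.37, adjusted p = 0.107) were not called for the difference between the comparisons, and Fgf21 (-3.19) and Tap1 (1.95) were. Cdkn1a and Abcg1 lie within 10 Mb of Bak1, Slc6a5 within 10 Mb of Bax, and Atp1b2 and Pimreg, a mitotic gene at 20.1 to 25.8 CPM against 40.7 to 45.7 CPM, within 10 Mb of Trp53. For these 5 genes the difference between the comparisons was called (2.26, 0.85, 0.76, 1.08 and -0.90 on the log2 scale).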

How the data were processed

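RNA-seq of 17 mouse cerebella was analysed from estimated counts, given for each lane and Ensembl transcript, which the authors deposited as 2 tables, 1 for each background. Per the submitters' processing notes kallisto 0.42.4 and edgeR were used and the builds mm9 and GRCm38 are named without a role. The libraries were stranded per the labels, and the strand setting of the counting is not given in the sources used here, so overlapping genes are uncertain. Lanes were added, 92284 of 94080 transcripts were matched to 31438 genes of GENCODE M21 (unmatched: 0.779% to 1.04% of the counts of the deep libraries), and the sums were rounded. The library of 13601 counts, whose lanes hold identical values, was left out. The other 16 were scaled together by TMM, filtered with filterByExpr and fitted in edgeR 4.0.16 (R 4.3.3) with the quasi-likelihood test, and Benjamini-Hochberg adjusted p-values below 0.05 over 18166 genes were called. SEs are the log2 difference divided by the square root of F. Contrasts were Atr/Bax/Bak minus Atr/p53, Bax/Bak controls minus p53 controls, and the difference between the 2. At these depths 1 count is at most 0.0235 CPM. CPM are not divided by gene length, so levels are compared within a gene only. Sequence sharing is the percentage of the 31-base words of a gene's transcripts found in another gene. Single values were compared by exact permutation tests over all arrangements of the libraries (Python 3.11.15, numpy 2.4.6).

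The fits were tested on simulated data. Alternatives were other scalings, filters and thresholds, DESeq2 1.42.0, limma 3.58.1 (voom), other sets of libraries, and each library left out. Promoter sequences are from RefSeq on GRCm38.p6.

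The members and lists were chosen with earlier results of these data known. Genes named are the deleted genes, the 8 largest differences in each direction among genes of at least 1 CPM that were called, did not overlap and share at most 50% of their words, up to 3 genes of smallest p per main list and 1 per other list, 5 in each direction also called in the controls or for the difference, and 2 near each locus. Other members of the lists, and the pseudogene families, were named as examples after their values were seen.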

Additional observations from a re-analysis of the deposited data

Results flagged for a closer look

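Among the genes named, the difference between the comparisons, Atr-deleted minus controls on the log2 scale, passed edgeR's test for 47. A positive value says that the Atr/Bax/Bak libraries stood higher against the Atr/p53 libraries than the Bax/Bak controls did against the p53 controls. Among p53 targets it was 1.22 for Zmat3, 2.26 for Cdkn1a, 2.40 for Phlda3, 2.06 for Eda2r, 1.08 for Bbc3, 3.41 for Pmaip1, 1.12 for Sesn2, 1.11 for Polk and 1.32 for Lpin1. Among genes of the cell cycle and of DNA repair it was -0.88 for Tyms, -2.16 for Pclaf, -1.12 for Prim1, -0.81 for Birc5, -0.89 for Cdk1, -1.27 for Bub1, -0.90 for Pimreg, -0.69 for Tipin, -0.52 for Chek2 and -1.25 for Chek1. Progenitor and neuron genes gave -0.54 for Gas1, 0.70 for Hhip, -0.63 for Pax6, -0.55 for Gap43 and -0.47 for Stmn2. Genes of stress, immunity and metabolism gave 0.92 for Bcl2l11, -0.40 for Psat1, 1.95 for Tap1, 0.85 for Abcg1 and 1.19 for Fosl2. Markers of other cells gave 1.08 for Atp1b2, 1.17 for Gpr17, 1.14 for Itgam, 0.76 for Slc6a5, 0.73 for Itpr1 and 0.49 for Rgs5. The value of Rgs5 was near the threshold (edgeR adjusted p = 0.0415), and its call was lost in most fits with 1 library left out. Of the genes with the largest differences it was 4.88 for Zfp750, 4.02 for Mobp, 5.13 for Pla2g2f, 4.56 for Alox5, 4.85 for Them5, 3.60 for Sgca, 4.15 for Tmem125, 2.72 for Gpr179, -1.47 for Spp1, -1.74 for Igf2bp1, -3.19 for Fgf21 and -1.21 for Insm2. Some of the 47 were also called with the same sign between the controls. Among them were Zmat3 (log2 difference 0.42), Eda2r (0.63), Sesn2 (0.80), Polk (0.33), Fosl2 (0.92), Gpr17 (1.02), Abcg1 (0.39), Slc6a5 (0.42) and Itpr1 (0.42). Tipin (-0.25), Chek2 (-0.35) and Gap43 (-0.37) were lower in both comparisons. Cdkn1a and Chek1 were called with the opposite sign in the controls.

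Single libraries stood apart from their group by Dixon's criterion in 12 of 134 groups examined, and chance alone gives about 1 in 20 groups. In replicate 2 of the Atr/p53 libraries these were Fgf21 (2.44 CPM), Insm2 (3.495 CPM), Pax6 (188 CPM), the Y-linked Eif2s3y (0.109 CPM) and the share of mitochondrially encoded RNA (9.02%). Replicate 1 of the same group was apart for Alox5 (0.481 CPM) and Gpr179 (0.275 CPM), and replicate 4 for Zscan4f (0.0799 CPM). In the Atr/Bax/Bak libraries, replicate 1 was low for Bax (24.7 CPM), replicate 2 was low for Insm2 (0.809 CPM) and high for Gabra6 (26.4 CPM), and replicate 3 was high for Tap1 (19.3 CPM).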

How the results depend on the processing

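The comparison of the Atr-deleted libraries kept its counts within 1.5 times under every alternative run: 3651 to 4394 genes higher, 3833 to 4237 lower and 7642 to 8631 in all when 1 library was left out, and 6324 to 8948 in all under other settings. The control comparison and the difference between the comparisons moved more. At an adjusted p below 0.01 the controls gave 630 higher, 661 lower and 1291 in all, and the difference 618, 557 and 1175. Leaving out genes that share over 5% of their words, an alternative chosen after seeing the data, gave 1053 higher in the controls. With a library left out, the controls gave 853 to 1476 higher, 963 to 1416 lower and 1883 to 2748 in all, and the difference 859 to 1691 higher, 770 to 1956 lower and 1629 to 3561 in all. The cause was not tested. The exact permutation p, adjusted over the 4 deleted genes, was 0.0857 to 0.375 for Atr and 0.0238 to 0.0381 for Bax, Bak1 and Trp53. For the mitochondrial share the exact p, not adjusted, was 0.0179 to 1.0. The direction of that share turned without replicate 2 of the Atr/p53 libraries (0.0179). Of the genes that the naming rule chose and the text reports, none changed direction in the comparison of the Atr-deleted libraries. In that comparison mt-Nd3 alone lost its call, at the 0.01 threshold. The fit of the 9 Atr-deleted libraries alone gives no value for the other comparisons. Counts of list members moved by over 1.5 times in 71 recomputations and by less in 1105. No paired analysis was possible because no number series in the sample names occurs in both backgrounds, so that a block for it leaves none of the 3 comparisons to be estimated. The 1 series shared by groups joins p53 control replicate 1 with the Atr/p53 libraries. Depth limits the genes under about 1 CPM.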
